A study of Mus musculus with 12 samples.

Results

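Loss of the interferon receptor gene Ifnar1 by itself was examined by setting the 3 arrays of IFNARko brains against the 3 arrays of wild-type (WT) brains, 6 of the 12 arrays of the series. Each array measured total RNA of a whole-brain lysate. The mice were untreated adults from specific-pathogen-free housing. The IFNARko mice lacked Ifnar1 and had intact Usp18, and the WT mice had both genes. The other 6 arrays, 3 of a Usp18 knockout (USP18ko) and 3 of mice lacking both genes (USP18ko:IFNARko), entered the test as further estimates of the spread and served for the last comparison. The labels give no strain, sex or age in numbers, and it is not stated that replicates came from different animals. The p-values therefore describe variation among these arrays, part of which, and in some groups all, may be technical. Within WT, sex-linked transcripts set replicate 1 apart from the other arrays, as given below. Values are log2 signals of 1 probe set per gene, the one with the highest mean, for 12393 genes. Signals come with no detection call, so a low level may lie at the background of the array.

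Type I interferons bind a receptor made of the IFNAR1 and IFNAR2 chains. Its kinases JAK1 and TYK2 pass the signal on to a complex, with STAT2 and IRF9 among its members, that binds interferon-stimulated response elements in the promoters of interferon-stimulated genes. Without infection, small amounts of interferon are thought to keep a basal, or tonic, level of this pathway in many tissues. USP18, itself an interferon-induced protein, binds IFNAR2 and dampens the receptor. The comparison asks how far transcript levels of the untreated brain differ when the receptor chain is missing.

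IFNARko replicate 1 stood apart from the other 11 arrays in its RNA control probe sets. Its actin 3' probe set exceeded its 5' probe set by 1.48 on the log2 scale, against 0.20 to 0.54 elsewhere, and the same difference for Gapdh was 0.47 against -0.37 to -0.17. In this array 84 genes lay at least 1 log2 unit above both group mates and 273 at least 1 below. WT replicate 1 read 10.17 for Xist, the transcript of the inactive X chromosome, and 3.18 for the Y-linked Eif2s3y, whereas the other 5 arrays read 4.98 to 5.65 and 8.14 to 8.94. WT replicate 2 had the highest myelin signal, with a mean of 8.83 over 11 oligodendrocyte and myelin genes against 6.60 to 7.47 in the other 5 arrays. Each main result is therefore given with and without IFNARko 1, and where it matters also without WT 1.

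Ifnar1 was the clearest difference. Its probe set read 8.21, 7.44 and 7.85 in WT arrays 1 to 3 and 6.24, 6.59 and 6.47 in the IFNARko arrays. All 3 IFNARko values lay below all 3 WT values, although signal remained, and it was not stated whether its probes lie within the deleted part of the gene. The difference was -1.40 (SE 0.17, limma adjusted p = 0.0199), and -1.30 (SE 0.18, adjusted p = 0.0389) without IFNARko 1. In a fit of these 6 arrays by themselves the adjusted p was 0.258. Leaving out WT 3 or IFNARko 3 gave an adjusted p of 0.185 or 0.128 at a difference of -1.40 or -1.42.

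Across all genes, Ifnar1 was the 1 gene called at an adjusted p under 0.05, which is 0.00807% of the genes tested, with 0 genes called higher. At an unadjusted p under 0.05, limma gave 611 genes higher and 602 lower, 9.79% of all genes. Without IFNARko 1, 3 genes were called (0.0242%), all lower: Pnpla3, Tifa and Ifnar1. The number of calls depended on the model: weighting arrays gene by gene gave 1275, and a fit of the 6 arrays by themselves gave 0. Without IFNARko 1 the unadjusted count shifted to 369 genes higher (2.98%) and 997 lower (8.04%).

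**Figure D1:**
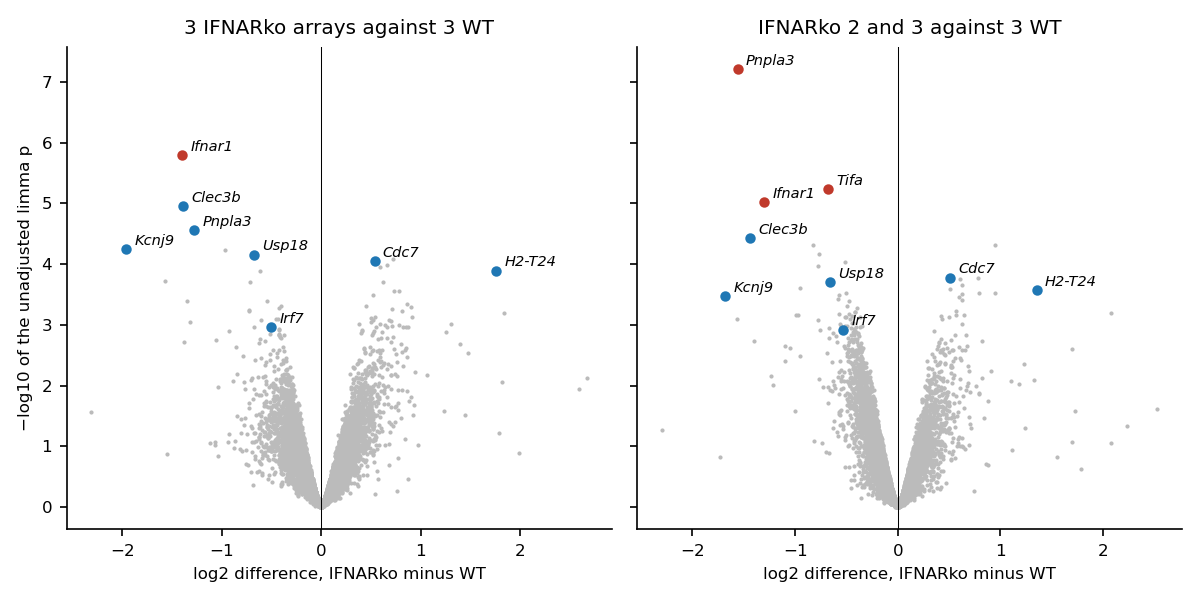
Each point is a gene. The horizontal axis is the log2 difference IFNARko minus WT and the vertical axis is minus log10 of the unadjusted limma p, with 3 IFNARko arrays on the left and IFNARko 2 and 3 on the right. Called genes are red, namely Ifnar1 on the left and Pnpla3, Tifa and Ifnar1 on the right, and other labelled genes are blue.

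Pnpla3 encodes a lipid-droplet enzyme that acts on triglycerides and phospholipids. It read 6.97, 7.06 and 6.99 in the WT arrays and 6.30, 5.27 and 5.62 in the IFNARko arrays. The groups did not overlap, and IFNARko 1 was the highest of its group. The difference was -1.28 (SE 0.20, adjusted p = 0.113) with all arrays. Without IFNARko 1 it fell by 1.56 (SE 0.13, adjusted p = 0.000763).

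Tifa encodes an adaptor protein that activates NF-kB through TRAF proteins. Its levels were 6.73, 6.67 and 6.67 in WT and 6.50, 5.97 and 6.05 in IFNARko brains, again with IFNARko 1 nearest to WT. The difference was -0.52 (SE 0.13, adjusted p = 0.257) with all arrays and -0.68 (SE 0.09, adjusted p = 0.036) without IFNARko 1. In a fit of IFNARko 2 and 3 and the WT arrays by themselves, chosen after seeing the data, the adjusted p was 0.0549 for Pnpla3, 0.333 for Tifa and 0.531 for Ifnar1, so all 3 calls were lost. Pnpla3 and Tifa also stood lower in the 3 arrays lacking both genes, as described below.

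**Figure D2:**
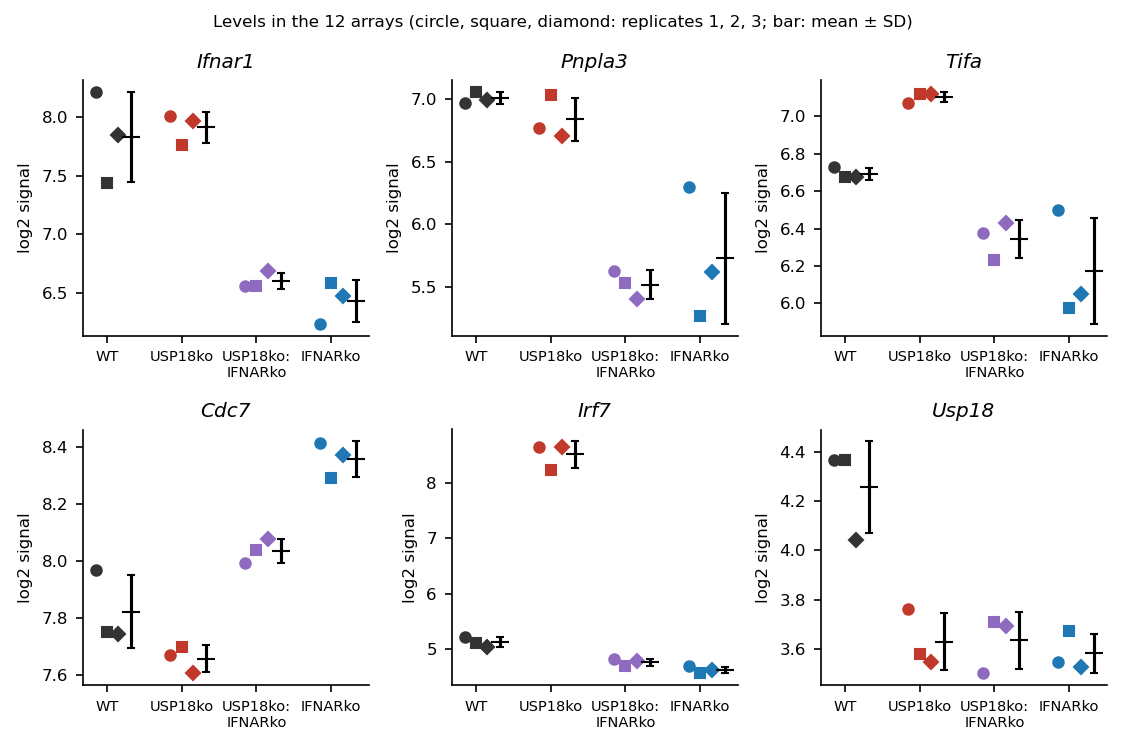
Log2 signals of 6 genes in the 12 arrays, grouped by genotype on the horizontal axis. Circles, squares and diamonds are replicates 1, 2 and 3, and bars give the mean with the SD of 3 arrays. The 6 arrays without Ifnar1 lie below the 6 others for Ifnar1, Pnpla3, Tifa and Irf7 and above them for Cdc7.

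With both IFNARko 1 and WT 1 left out, 11 genes were called (0.0888%), 6 lower (0.0484%) and 5 higher (0.0403%). The lower genes were Pnpla3, Ifnar1, Tifa, Clec3b, the ciliary gene B9d1 and the Mediator subunit gene Med29. The higher genes were Cdc7, the sodium-calcium exchanger gene Slc8a1, the presynaptic scaffold gene Pclo, the centrosomal gene Pcm1 and the teneurin gene Tenm4. For several of these, WT 1 differed from the other WT arrays: Med29 read 7.29 in WT 1 against 8.78 and 8.58, with 7.95, 7.78 and 7.96 in the IFNARko arrays, and Tenm4 read 7.55 in WT 1 against 6.48 and 6.54, with 7.72, 7.55 and 7.75. These calls rest on 2 arrays against 2, and B9d1, Med29, Slc8a1, Pclo, Pcm1 and Tenm4 were named after their values were seen.

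None of the other members of the receptor system was called. The list of interferon receptors and ligands had 15 measured genes, of which 1, Ifnar1, was called, with a median difference of -0.03 against -0.01 over all genes tested. Lower without overlap were 3 of the 15, against 6.74% of all genes: Ifnar1, the interferon gene Ifnab at -0.11 (adjusted p = 0.698) and the interferon zeta gene Ifnz at -0.16 (adjusted p = 0.597). Without IFNARko 1 these were 6 of 15, against 19.5% of all genes. Of the 15 genes, 10 had a WT mean under the 40th percentile of all genes. Among all genes with so low a mean over the 6 arrays, the share was 35.2%. Ifnar2, the partner chain, read 7.54, 8.21 and 7.96 in WT and 7.82, 7.91 and 8.01 in IFNARko arrays, a difference of 0.01 (adjusted p = 0.985). Its other probe set was lower without overlap, at 6.75, 6.69 and 6.89 in WT and 6.49, 6.56 and 6.53 in IFNARko arrays. That difference was -0.25 (limma adjusted p = 0.493 with each probe set by itself), or -0.23 without IFNARko 1. Ifngr1, a chain of the interferon-gamma receptor, differed by -0.11 (adjusted p = 0.763). Ifngr2, its other chain and a neighbour of Ifnar1, read 9.87, 9.97 and 9.79 in WT and 8.72, 9.83 and 9.59 in IFNARko, so that its difference of -0.50 came mostly from IFNARko 1 and was -0.17 without it. Ifnb1, the gene for interferon beta, lay between 4.31 and 4.93 in all 6 arrays.

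None of the 27 measured JAK-STAT and SOCS genes was called with or without IFNARko 1, and their median difference was -0.01. The receptor kinase genes Jak1 and Tyk2 differed by 0.10 and -0.02. Other probe sets of Jak1 gave 0.51, higher without overlap, and 0.34. Stat2 read 5.56, 5.62 and 5.87 in WT and 4.33, 5.67 and 5.35 in IFNARko arrays, and only IFNARko 1 lay far below WT. Jak3, a kinase of lymphocyte cytokine receptors, differed by -0.41 (adjusted p = 0.477) without overlap. Socs1, a feedback inhibitor of JAK kinases, differed by -0.32 (adjusted p = 0.505).

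Among 8 interferon regulatory factors, Irf7 stood out by its separation. Irf7 is a transcription factor that amplifies interferon production and is itself interferon-induced. It read 5.22, 5.12 and 5.04 in WT and 4.69, 4.56 and 4.61 in IFNARko arrays, and IFNARko 1 was here close to its group mates. The difference was -0.50 (SE 0.12, adjusted p = 0.244), or -0.54 (adjusted p = 0.231) without IFNARko 1, so it was not called. Irf9, the DNA-binding partner of the STAT proteins, differed by -0.19 (adjusted p = 0.575). Irf1 read 6.65, 6.78 and 6.75 in WT and 7.06, 6.40 and 6.50 in IFNARko arrays, high in IFNARko 1 and low in the other IFNARko arrays.

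Usp18, an interferon-induced gene and not targeted in these mice, ranked among the lower genes. Its levels were 4.36, 4.36 and 4.04 in WT and 3.55, 3.67 and 3.53 in IFNARko arrays. The groups did not overlap and the difference was -0.68 (SE 0.12, adjusted p = 0.136), with -0.66 (adjusted p = 0.178) without IFNARko 1. In the USP18ko arrays, which lack the gene, the probe set read 3.76, 3.58 and 3.55, and the IFNARko values lay within 3.53 to 3.67.

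Interferon-stimulated genes were listed as 71 genes, of which 54 were measured. None was called in IFNARko against WT by limma, with or without IFNARko 1. Their median difference was -0.13 with all arrays and -0.24 without IFNARko 1, against -0.01 and -0.03 over all genes tested. Without IFNARko 1, 43 of 54 were negative, against 7283 of all 12393 genes. At an unadjusted p under 0.05, 10 were lower and 0 higher with all arrays, against 4.86% and 4.93% of all genes, and 18 were lower without IFNARko 1, against 8.04%. The median of the list was -0.24 and -0.22 in IFNARko 2 and 3 relative to the WT mean and 0.10 in IFNARko 1.

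The counts have to be read against the signal level. Of the 54 genes, 45 had a WT mean under the 40th percentile of all genes. In genes with so low a mean over the 6 arrays, the median difference without IFNARko 1 was -0.12 over all 4957 such genes and -0.26 over the 45 interferon-stimulated genes among them. Between IFNARko 2 and 3 and the 3 WT arrays, 27 of the 54 genes were lower without overlap, against 19.5% of all genes. All 27 were among the 45 with low signal, where 35.2% of all genes were so. With all 3 IFNARko arrays, 5 of 54 were lower without overlap, all of them with low signal, against 6.74% of all genes and 9.46% of those with low signal. The restriction to low signal was chosen after seeing the data.

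The 5 genes were Ifi202b, Usp18, Ifit3, Oasl2 and Oas1a. Ifi202b, a member of the HIN-200 family of nucleic-acid-binding proteins, read 4.47, 4.70 and 4.25 in WT and 4.01, 3.43 and 3.43 in IFNARko arrays, a difference of -0.85 (SE 0.26, adjusted p = 0.451). Ifit3, whose protein joins the complex that binds foreign RNA ends, read 5.18, 5.53 and 5.16 in WT and 4.91, 4.76 and 4.77 in IFNARko arrays, a difference of -0.48 (SE 0.13, adjusted p = 0.329). The oligoadenylate synthetase genes Oasl2 and Oas1a differed by -0.41 and -0.39. Oasl2, Oas1a and Slfn8 were named after their values were seen, Slfn8 as the 1 gene of the list that was higher without overlap, at 0.24 (adjusted p = 0.802), against 4.89% of all genes.

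Rsad2, which encodes the antiviral enzyme viperin, read 6.51, 6.80 and 6.40 in WT and 6.46, 5.74 and 5.50 in IFNARko arrays. Rtp4, a chaperone gene of the same response, read 5.35, 5.67 and 4.92 in WT and 5.41, 4.39 and 4.25 in IFNARko arrays. In both, IFNARko 1 lay within the WT range and the other IFNARko arrays below it. Their differences were -0.67 and -0.63 with all arrays and -0.95 (adjusted p = 0.178) and -0.99 (adjusted p = 0.208) without IFNARko 1. Ifi27l2a and Lgals3bp differed by -0.54 and -0.48, with their highest values, 5.18 and 6.48, in WT 2.

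The most positive members of the list were Trim34a at 0.68, Ifitm2 at 0.37, Pnpt1 at 0.32, Ifit2 at 0.31, Cmpk2 at 0.29 and Tor3a at 0.25, none of them called. In 5 of these 6 genes the highest of the 6 arrays was IFNARko 1, as with Pnpt1, which read 7.61, 7.80 and 7.61 in WT and 8.50, 7.71 and 7.76 in IFNARko arrays. The exception was Ifitm2, highest in WT 2. The other probe set of Cmpk2 went the other way, by -0.43, with 5.17 in IFNARko 1 against 7.49 and 7.25 in its group mates.

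A family with a different course was that of the immunity-related GTPases and guanylate-binding proteins, which attack the vacuoles of intracellular microbes and are induced by interferons of both types. Of 11 measured genes, 0 were called. Their median difference was 0.05 with all arrays and -0.33 without IFNARko 1, when all 11 were negative. The mean level over the family was 4.91, 5.07 and 4.87 in WT arrays, 4.67 and 4.62 in IFNARko 2 and 3, and 5.92 in IFNARko 1. In 9 of the 11 genes IFNARko 1 was the highest of the 6 arrays, which was the case for 4935 of all 12393 genes.

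Gbp2 read 4.45, 4.55 and 4.37 in WT and 6.97, 4.47 and 4.24 in IFNARko arrays. Igtp read 6.01, 6.16 and 5.82 in WT and 7.51, 5.65 and 5.48 in IFNARko arrays. Gbp3 read 5.37, 5.45 and 5.29 in WT and 6.75, 4.57 and 4.72 in IFNARko arrays. In these genes and in Irgm2 (6.11 in IFNARko 1, 4.18 to 4.70 in the other 5 arrays) IFNARko 1 was far above every other array of the comparison. Without it, Gbp3 and Igtp differed by -0.73 (adjusted p = 0.327) and -0.43 (adjusted p = 0.311), and Gbp2 by -0.10. Gbp2b read 4.13, 4.14 and 4.09 in WT and 3.63, 3.60 and 3.78 in IFNARko arrays, with no high value in IFNARko 1. In Gbp6 and Gbp8, IFNARko 1 exceeded the mean of IFNARko 2 and 3 by only 0.27 and 0.22. The high signals of IFNARko 1 came with the unusual RNA controls of the same array, and the part of those controls in them was not tested. The Ifnar1 signal, at 6.24, was lower in IFNARko 1 than in its group mates. Gbp3, Igtp, Gbp6 and Gbp8 were named after their values were seen.

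**Figure D3:**
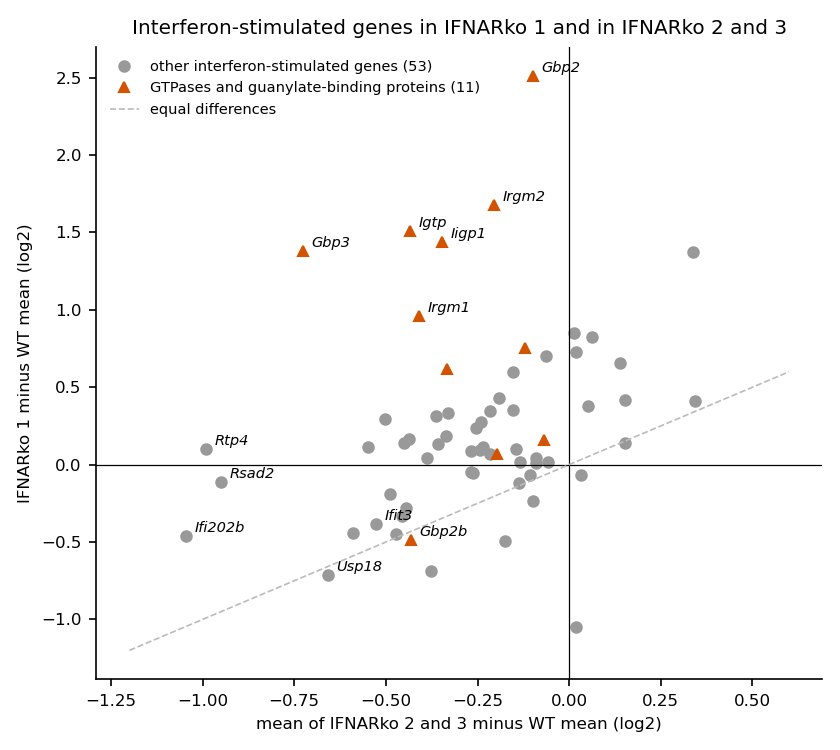
Each point is an interferon-stimulated gene. The horizontal axis is the mean of IFNARko 2 and 3 minus the WT mean and the vertical axis is IFNARko 1 minus the WT mean, both in log2 units, with the 11 GTPases and guanylate-binding proteins as triangles. Gbp2, Igtp, Gbp3 and Irgm2 lie high above the line of equal differences, whereas Usp18, Ifit3 and Gbp2b lie near it.

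Promoters of genes with and without a high signal in IFNARko 1 were searched for the same element. The core of the interferon-stimulated response element was searched as GAAANNGAAA, or TTTCNNTTTC on the other strand, in the 250 bases before each gene start in the RefSeq promoter table (GRCm38.p6). It was found in 7 of 8 GTPase and guanylate-binding genes with a window and in 11 of 41 interferon-stimulated genes, against 331 of 9887 tested genes, or 3.35%. Overlapping matches were counted separately. Shown are the stretches around the matches, 5′ to 3′ in the direction of the gene with the matches in capitals, for genes that were low in all IFNARko arrays (Ifit3, Oas1a) and for genes that were high in IFNARko 1 (Gbp2, Gbp3, Igtp, Irgm2).
Ifit3 (GRCm38.p6, chr19:34583353-34583436, plus strand): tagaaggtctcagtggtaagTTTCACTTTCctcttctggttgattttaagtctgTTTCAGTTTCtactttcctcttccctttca
Oas1a (GRCm38.p6, chr5:120907526-120907565, minus strand): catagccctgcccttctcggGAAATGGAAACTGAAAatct
Gbp2 (GRCm38.p6, chr3:142620584-142620633, plus strand): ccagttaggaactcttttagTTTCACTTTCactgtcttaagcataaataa
Gbp3 (GRCm38.p6, chr3:142559979-142560034, plus strand): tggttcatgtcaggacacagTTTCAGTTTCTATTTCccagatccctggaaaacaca
Igtp (GRCm38.p6, chr11:58199502-58199551, plus strand): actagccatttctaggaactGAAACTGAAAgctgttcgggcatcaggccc
Irgm2 (GRCm38.p6, chr11:58214893-58214942, plus strand): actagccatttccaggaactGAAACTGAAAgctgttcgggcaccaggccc
The genes shown were chosen among those with a match. The windows of Ifi202b, Oasl2 and Irf7, also low in all IFNARko arrays, held 0 matches. Those of Ifi47, Trim34a and Cmpk2, which were high in IFNARko 1 in the probe sets used, also held 0. A match is a description of the sequence, and no binding was measured. Ifi47 was named after its values were seen.

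MHC class I molecules present peptides to T cells, and their genes are induced by interferon. Of 19 measured genes of class I and antigen processing, 0 were called, 4 were lower without overlap and 1 was higher, against 6.74% and 4.89% of all genes, with a median of -0.12 with all arrays and -0.19 without IFNARko 1. H2-K1 read 9.39, 9.55 and 9.30 in WT and 8.51, 9.15 and 9.16 in IFNARko arrays, a difference of -0.47 (adjusted p = 0.475). H2-D1 read 10.20, 10.26 and 10.07 in WT and 9.12, 9.96 and 9.94 in IFNARko arrays, a difference of -0.50 (adjusted p = 0.503). Both were lowest in IFNARko 1, and without it the differences were -0.26 and -0.23. Other probe sets of H2-K1 gave -0.46 and -0.44 with all arrays and -0.48 in both without IFNARko 1, and 1 gave 0.08. These genes are similar in sequence, so their probe sets may share signal. Tap2, a subunit of the peptide transporter, differed by -0.30 (adjusted p = 0.488), and the fourth gene was Tapbpl, a peptide editor, at -0.22, named after its values were seen.

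The 1 higher gene was H2-T24, a non-classical class I gene. It read 5.34, 5.40 and 4.40 in WT and 7.62, 6.42 and 6.38 in IFNARko arrays, a difference of 1.76 (SE 0.32, adjusted p = 0.136), and 1.35 (adjusted p = 0.178) without IFNARko 1. All 3 IFNARko arrays lay above the highest WT array. The USP18ko and USP18ko:IFNARko arrays differed by -0.04 for this gene.

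Of 37 measured chemokines and cytokines, 0 were called and 4 were lower without overlap, with 0 higher, against 6.74% and 4.89% of all genes. These were Il34, Cx3cl1, Ccl4 and Il6. Il34, a ligand of the receptor that microglia need to survive, read 6.19, 6.85 and 6.25 in WT and 5.40, 5.91 and 5.99 in IFNARko arrays, a difference of -0.66 (SE 0.19, adjusted p = 0.392) or -0.48 (adjusted p = 0.359) without IFNARko 1. Cx3cl1, a neuronal chemokine read by microglia, differed by -0.50, mostly through a value of 8.68 in IFNARko 1 against 9.66 and 9.64 in its group mates. Ccl4 differed by -0.27 (adjusted p = 0.512). Il6, at 2.74 to 2.95 in all 6 arrays, lay near the bottom of the scale and was named after its values were seen. The list's median was -0.10 with all arrays and -0.15 without IFNARko 1, close to the -0.12 of genes with low signal, and 31 of its 37 genes had low signal in WT.

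Genes for sensors of foreign nucleic acid, complement and MHC class II gave no call either. Medians were 0.03, -0.07 and -0.06 with all arrays over 17, 15 and 8 measured genes, and -0.03, -0.13 and -0.19 without IFNARko 1. Unc93b1, which carries Toll-like receptors to endosomes, read 6.38, 6.47 and 6.43 in WT and 6.25, 6.27 and 6.15 in IFNARko arrays, a small difference of -0.20 (adjusted p = 0.525) without overlap.

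**Figure D4:**
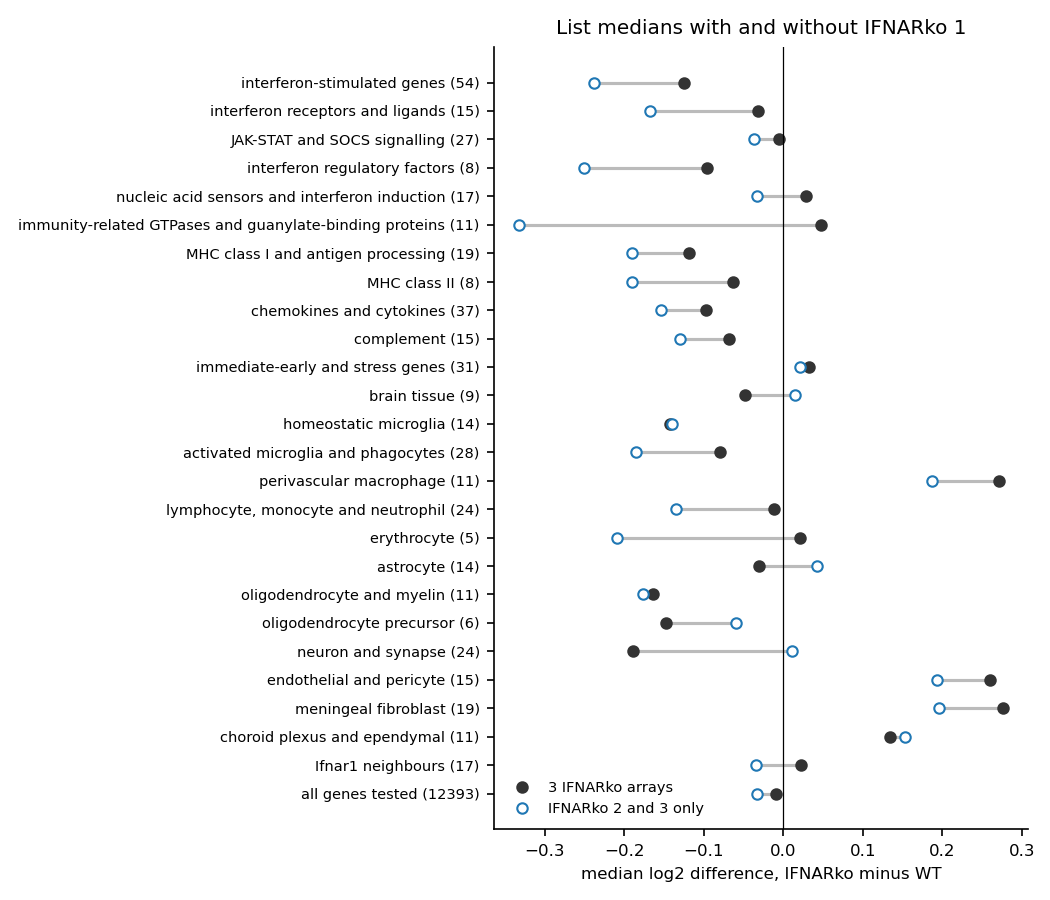
Median log2 difference, IFNARko minus WT, of each gene list on the horizontal axis, with the number of genes measured in parentheses. Filled circles use 3 IFNARko arrays and open circles IFNARko 2 and 3. Without IFNARko 1 the GTPases move from 0.05 to -0.33 and the interferon-stimulated genes from -0.13 to -0.24, while meningeal fibroblast genes stay above 0 at 0.28 and 0.20.

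Beyond the receptor itself, the genes ranked highest among those lower without overlap shared no list. They included Pnpla3 and the interferon-stimulated gene Usp18, both given above. After Ifnar1 came Clec3b, which encodes the secreted lectin tetranectin. It read 7.78, 8.32 and 7.85 in WT and 6.69, 6.45 and 6.65 in IFNARko arrays, so every IFNARko array was more than 1 log2 unit below the lowest WT array. The difference was -1.39 (SE 0.20, adjusted p = 0.0692), and -1.44 (adjusted p = 0.101) without IFNARko 1. Kcnj9, a G-protein-gated potassium channel gene, had the widest difference of these genes at 6.87, 6.71 and 7.03 in WT against 4.35, 5.14 and 5.24 in IFNARko arrays. Its difference was -1.96 (SE 0.33, adjusted p = 0.136) in the probe set used, and -0.75 and 0.09 in the gene's other probe sets. Matn4, a matrilin of the extracellular matrix, read 7.46, 7.79 and 7.49 in WT and 6.22, 6.86 and 6.77 in IFNARko arrays, a difference of -0.96 (adjusted p = 0.136). The remaining genes were the adaptor subunit gene Ap4m1 at -0.62, the Golgi gene Tmem87a at -1.57, the integrin gene Itga9 at -0.72 and Ocel1 at -1.35, with adjusted p from 0.136 to 0.244.

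Among the higher genes of the same rule, H2-T24, given above, had the largest difference. The first by p was 4921524J17Rik, a gene named here only by its clone, which read 9.47, 9.35 and 9.52 in WT and 10.41, 10.11 and 9.99 in IFNARko arrays, a difference of 0.72 (SE 0.13, adjusted p = 0.136). Cdc7, a kinase that starts DNA replication, read 7.97, 7.75 and 7.74 in WT and 8.41, 8.29 and 8.37 in IFNARko arrays, a difference of 0.54 (SE 0.10, adjusted p = 0.136). Here all IFNARko arrays, IFNARko 1 included, stood close together above WT. Alox8, a lipoxygenase gene, differed by 0.66, the nuclear envelope gene Syne1 by 0.59, the cohesin regulator gene Pds5a by 0.62, the mTOR inhibitor gene Deptor by 0.73, Sdad1 by 0.78, the cyclin gene Ccnt2 by 0.52 and the glycosyltransferase gene Extl2 by 0.87. None was called, and their adjusted p ran from 0.136 to 0.244. For Cdc7, Syne1, Deptor, Ccnt2 and Extl2 another probe set of the gene gave a difference below 0, the lowest of them -0.10.

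Cell-type markers were examined because fewer cells of a type and less RNA per cell cannot be told apart in whole-brain RNA. Meningeal fibroblast genes stood higher: their mean level was 8.27, 8.42 and 8.44 in WT and 8.65, 8.62 and 8.63 in IFNARko arrays, with no overlap. Of 19 measured genes 0 were called, 4 were higher without overlap against 4.89% of all genes, and the median was 0.28, or 0.20 without IFNARko 1 when 0 of the 19 were negative. In USP18ko:IFNARko against USP18ko the median difference of the list was 0.06. There the list means overlapped, at 8.47, 8.58 and 8.51 against 8.53, 8.44 and 8.59. Fmod, a small proteoglycan gene, read 7.99, 7.67 and 7.97 in WT and 8.96, 8.23 and 8.31 in IFNARko arrays, a difference of 0.63 (adjusted p = 0.408). Crabp2, a retinoic acid carrier of the arachnoid and pia, differed by 0.59 (adjusted p = 0.396), Ogn by 0.56 (adjusted p = 0.467) and Col1a1, the collagen chain gene, by 0.74 (adjusted p = 0.451). Without IFNARko 1 the differences were 0.40 for Fmod, 0.31 for Ogn and 0.55 for Col1a1. Other probe sets gave 0.25 for Ogn and 0.22 for Col1a1 with all arrays. Col1a1 overlapped between the groups, at 7.81 in WT 3 and 7.64 in IFNARko 2.

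Genes of the vessel wall and its macrophages went the same way. Over 15 endothelial and pericyte genes the median was 0.26, or 0.19 without IFNARko 1, although WT 1, with a mean of 7.47, overlapped the IFNARko range of 7.46 to 7.57. Abcb1a, a drug efflux pump of the blood-brain barrier, read 6.15 ± 0.13 in WT and 6.62 ± 0.33 in IFNARko arrays (SD, n = 3), without overlap, a difference of 0.48 (limma adjusted p = 0.451). The median of 11 perivascular macrophage genes was 0.27, or 0.19 without IFNARko 1. Mrc1, the mannose receptor of these cells, read 5.74, 6.30 and 6.26 in WT and 7.27, 6.75 and 6.71 in IFNARko arrays, a difference of 0.81 (adjusted p = 0.337). Cd209f of the same list went the other way, by -0.42 (adjusted p = 0.503). None of the genes in these lists was called in IFNARko against WT. In USP18ko:IFNARko against USP18ko the endothelial and pericyte median was 0.07 and the perivascular macrophage median -0.32. How much meninges and vessels each lysate held was not measured apart from these transcripts.

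Markers of parenchymal cells spread widely between arrays of one genotype. The median of 14 homeostatic microglia genes was -0.14 with and without IFNARko 1, but the list mean ran from 6.63 in WT 1 to 7.44 in WT 2, a span that held all IFNARko arrays. Selplg, a microglial adhesion ligand, was the 1 gene of that list lower without overlap, at 5.95, 6.22 and 6.05 in WT and 5.79, 5.79 and 5.84 in IFNARko arrays (adjusted p = 0.475), against 6.74% of all genes. Mog, a myelin protein gene, read 7.32 in WT 2 against 3.11 and 3.36 in the other WT arrays and 3.26 to 4.32 in the IFNARko arrays. The median of 24 neuron and synapse genes was -0.19 with all arrays and 0.01 without IFNARko 1, the array in which 15 of the 24 had their lowest value of the 6. For 14 astrocyte genes the medians were -0.03 and 0.04.

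**Figure D5:**
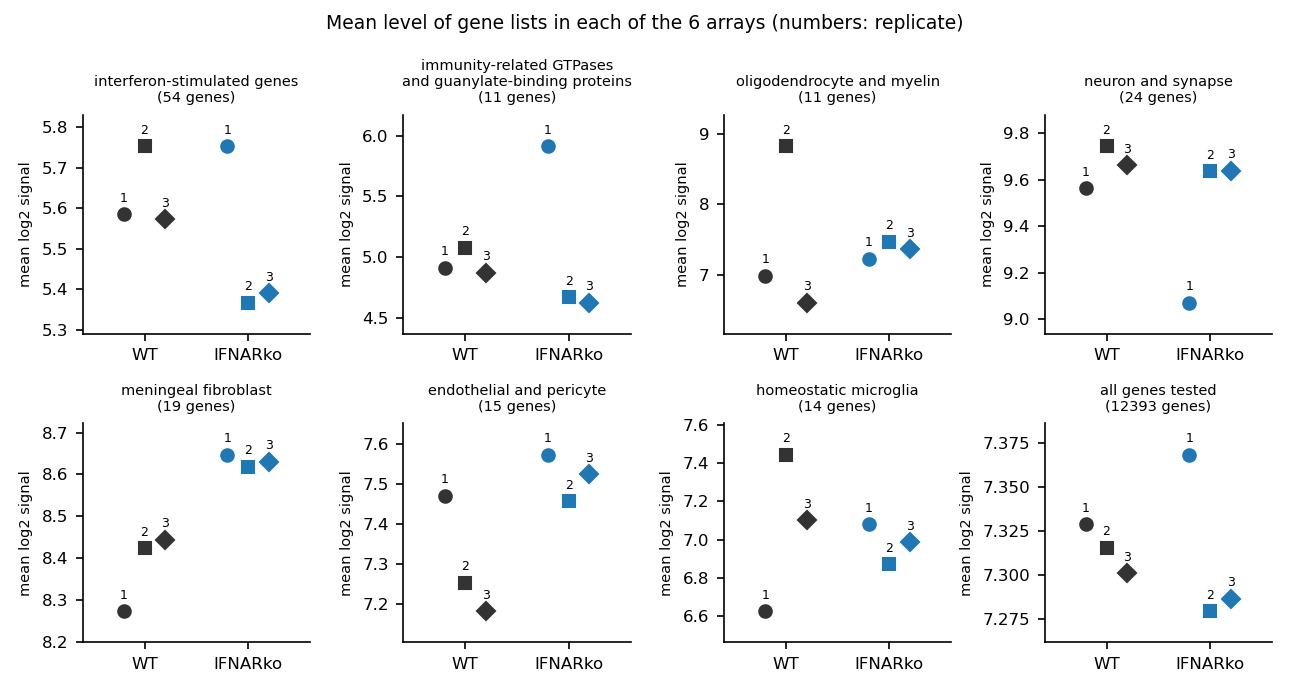
Mean log2 signal of 7 gene lists and of all 12393 genes in each of the 6 arrays, with WT on the left of each panel and IFNARko on the right and numbers giving the replicate. IFNARko 1 is apart for the GTPases at 5.92 and for neuron genes at 9.07, WT 2 for myelin genes at 8.83, and the meningeal fibroblast means do not overlap between genotypes.

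Genes next to Ifnar1 on its chromosome were looked at apart. Of the 20 annotated genes on each side, 17 were measured, 0 were called in IFNARko against WT, and their median difference was 0.02. In USP18ko:IFNARko against USP18ko, 1 of the 17 was called lower, against 1.48% of all genes. Paxbp1 and Donson were higher without overlap, against 4.89% of all genes, by 0.30 (adjusted p = 0.501) and 0.21 (adjusted p = 0.519), and both were named after their values were seen. Paxbp1 read 7.61, 7.78 and 7.63 in WT and 7.83, 7.98 and 8.12 in IFNARko arrays.

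The 6 arrays of USP18ko and USP18ko:IFNARko mice, none of them used above as WT or IFNARko, allow the loss of Ifnar1 to be set side by side on a second background. In USP18ko brains, where the receptor is not restrained by USP18, interferon-stimulated genes were high: the list mean was 7.37 in each of the 3 arrays, against 5.57 to 5.75 in WT. In the arrays lacking both genes it was 5.46, 5.42 and 5.50. Of the 54 genes, 41 were called lower in USP18ko:IFNARko against USP18ko, against 1.48% of all genes. By the interaction, 33 were called more negative with Ifnar1 loss in that background than in the presence of Usp18, against 0.823% of all genes. Irf7 read 4.69, 4.56 and 4.61 in IFNARko arrays, and its interaction was -3.26 (adjusted p = 4.34e-07). The median difference over the list with Ifnar1 loss was -1.56 in the absence of Usp18 and -0.13 in its presence, or -0.24 without IFNARko 1. Of the 54 genes, 45 had low signal in WT, where the background of the array may cut a fall short. How far this affected the medians and the interaction calls was not tested.

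Pnpla3, Tifa and Ifnar1 fell on that background too. Pnpla3 read 6.77, 7.03 and 6.70 in USP18ko and 5.62, 5.53 and 5.40 in USP18ko:IFNARko arrays. In a fit of those 6 arrays by themselves, chosen after seeing the data, it fell by 1.32 (SE 0.10, adjusted p = 0.000154), and the interaction was -0.04 (SE 0.28, adjusted p = 0.988). Tifa read 7.07, 7.12 and 7.12 in USP18ko and 6.38, 6.23 and 6.43 in USP18ko:IFNARko arrays and fell by 0.76 (SE 0.08, adjusted p = 0.000722). Its interaction was -0.24 (SE 0.18, adjusted p = 0.941). The Ifnar1 probe set itself fell by 1.31 (SE 0.09, adjusted p = 4.8e-05) there. The spread of these 6 arrays had also entered the fit in which Pnpla3 and Tifa were called. Their 6-array p-values are therefore not independent of that choice. Xist was high, at 10.34 to 11.34, in the USP18ko:IFNARko arrays and low, at 5.03 to 5.69, in the USP18ko arrays, so sex-linked differences and genotype cannot be told apart in that comparison. The Y-linked Eif2s3y read 3.05 and 3.22 in USP18ko:IFNARko 1 and 3 but 7.16 in USP18ko:IFNARko 2, so this array was high for both. In IFNARko against WT the only array with high Xist was WT 1.

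In all, 62 genes (0.500%) were lower in every one of the 6 arrays lacking Ifnar1 than in every one of the 6 arrays with it, and 34 (0.274%) were higher. Of those lower, 23 were called in the 6-array fit, where 2.04% of all genes were called lower, and 3 of the 23 were from the list of interferon-stimulated genes. Irf7 and H2-K1, interferon-induced genes of other lists, were also among the 23. Of those higher 5 were called, against 0.274% of all genes. Since the 6 arrays also chose these genes, the counts support nothing by themselves. The same holds for the 6-array p-values of the genes named next. Cdc7 was among the higher genes, at 7.67, 7.70 and 7.60 in USP18ko and 7.99, 8.04 and 8.08 in USP18ko:IFNARko arrays, where it rose by 0.38 (SE 0.07, adjusted p = 0.023) in the 6-array fit, but was not called in the fit of all 12 arrays (adjusted p = 0.0974). Serpina3n, a protease inhibitor gene of reactive astrocytes, read 7.15, 6.91 and 7.07 in WT and 6.42, 6.30 and 6.23 in IFNARko arrays, a difference of -0.73 (adjusted p = 0.244), and fell by 1.02 (adjusted p = 0.016) in the USP18ko background. Cbr3, a carbonyl reductase gene, read 7.75, 7.64 and 8.12 in WT and 7.54, 7.01 and 7.11 in IFNARko arrays, a difference of -0.62 (adjusted p = 0.267), and fell by 0.74 (adjusted p = 0.00221) there. Cbr3 lies on chromosome 16 like Ifnar1, with 55 annotated genes between them, and 5 of the 96 genes, Ifnar1 included, lie on that chromosome, which holds 3.34% of the tested genes. Serpina3n and Cbr3 were named after their values were seen.

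Clec3b and Matn4 behaved otherwise. Their USP18ko and USP18ko:IFNARko arrays differed by 0.00 and 0.32, and the interactions were 1.39 (SE 0.28, adjusted p = 0.0368) and 1.28 (SE 0.23, adjusted p = 0.0155) with all arrays. Without IFNARko 1 they were 1.43 (adjusted p = 0.0549) and 1.08 (adjusted p = 0.00733), so the call for Clec3b was lost. Kcnj9 had an interaction of 1.44 (adjusted p = 0.492), which did not pass the threshold.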

How the data were processed

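Per the labels' protocols, biotin-labelled targets from total RNA of 12 whole-brain lysates were hybridised to 1-colour Affymetrix arrays of the 3' expression type. The values deposited by the authors are log2 signals per probe set, made with the R package affy per the submitters' processing notes. How background was corrected, arrays were normalized and probes were summarised is not given in the sources, and the base 2 was inferred from values of 2.36 to 13.81 with array medians of 6.98 to 7.07. Probe sets were named from the platform annotation, which can be old: of 22690, 20380 had 1 gene, 691 several and 1555 were not listed. Each gene was represented by its probe set of highest mean across the 12 arrays. This left 12393 genes, and 4956 had more than 1 probe set. Of 74 genes picked by the naming rule that had several probe sets, 34 had probe sets that differed in sign.

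Groups follow the genotype in the labels. limma (3.58.1, R 4.3.3; lmFit, contrasts.fit and eBayes) was fitted to the 12 arrays by genotype alone, with 8 residual and 4.67 prior degrees of freedom, and again to 11 arrays without IFNARko 1. Tests were two-sided, p-values were Benjamini-Hochberg adjusted over all genes, and called means an adjusted p under 0.05. With 3 arrays a group, the smallest p of an exact permutation test would be 0.1. The interaction is the difference USP18ko:IFNARko minus USP18ko less the difference IFNARko minus WT. The limma step was tested on simulated data.

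The rule for named genes takes Ifnar1 and Usp18, then among genes without overlap the 10 with the smallest p in each direction, then genes called without IFNARko 1, up to 4 with the smallest p in each list, members of the receptor, JAK-STAT and interferon regulatory factor lists, and the 6 lowest and 6 highest interferon-stimulated genes. Further names are said in the text to be chosen after their values were seen, besides the sex-linked and myelin transcripts of the array checks. The members, lists and tests were chosen with earlier results of these data known. Alternatives were other summaries of probe sets, a filter on low signal, quantile normalization, median centring, array weights, a trended robust variance, only the 6 arrays compared, a replicate block and each array left out. Promoter sequences came from RefSeq (GRCm38.p6).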

Additional observations from a re-analysis of the deposited data

Results flagged for a closer look

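For 26 named genes the difference with Ifnar1 loss was not the same with and without Usp18, by limma's interaction at an adjusted p under 0.05. Values are the difference USP18ko:IFNARko minus USP18ko less the difference IFNARko minus WT, on the log2 scale. A negative value is a more negative difference with Ifnar1 loss in the absence of Usp18 than in its presence. Some of the genes, such as Gbp2, Ifit2, Cmpk2 and Tor3a, were not lower in IFNARko than in WT. The values include IFNARko 1, which was far above its group mates for Gbp2, Igtp, Gbp3 and Irgm2.

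Among interferon-stimulated genes and regulators the interaction was -4.33 for Ifi27l2a, -4.06 for Ifit3, -3.95 for Rsad2, -3.89 for Rtp4, -3.68 for Oasl2, -3.38 for Lgals3bp, -3.30 for Ifi202b, -2.31 for Oas1a, -2.17 for Ifit2, -1.71 for Tor3a and -1.35 for Cmpk2. For Irf7 and Irf9 it was -3.26 and -1.07. For the GTPases and guanylate-binding proteins it was -4.76 for Gbp2, -4.16 for Igtp, -3.64 for Gbp6, -3.49 for Gbp3, -3.31 for Irgm2, -3.27 for Ifi47 and -3.08 for Gbp2b. For the class I genes H2-K1, H2-D1 and Tap2 it was -1.69, -1.56 and -0.86.

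Clec3b (1.39) and Matn4 (1.28) were the exceptions with a positive value, apart from Xist (7.13). Xist was high in WT 1 and in all USP18ko:IFNARko arrays, and low in all USP18ko and IFNARko arrays.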

How the results depend on the processing

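Every direction below is IFNARko minus WT on the log2 scale, and counts are genes at a limma adjusted p under 0.05. The alternatives to the fit without IFNARko 1 were chosen after seeing the data. The 1 called gene became 2 with array weights, 1275 with gene-by-gene array weights (510 higher, 765 lower) and 3 with each probe set by itself. It became 0 in a limma fit of the 6 arrays alone, with 490 genes at an unadjusted p under 0.05. Leaving out 1 array gave 0 to 5 calls, namely 0 without IFNARko 2, IFNARko 3, USP18ko 1, USP18ko 3, USP18ko:IFNARko 1 or WT 3 (878 to 1905 unadjusted) and 5 without WT 1 or WT 2, and leaving out both IFNARko 1 and WT 1 gave 11. Without IFNARko 1, the 3 calls became 0 with array weights (729 unadjusted), 1084 gene by gene (409 higher, 675 lower), 6 with each probe set and 0 above the 40th percentile of signal (446 unadjusted). A fit of the 5 arrays alone called 2 other genes, Kcnj9 and Abhd1, the second named after its values were seen, and 0 of the 3. Leaving out a further array gave 1 to 17, with 6 without USP18ko 2, 11 without WT 1 and 17 without WT 2. The interaction's 105 calls became 221 gene by gene and 20 above the 40th percentile. The causes were not tested.

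The difference for Ifnar1 was negative under all alternatives, from -1.60 to -1.11 when 1 array or both IFNARko 1 and WT 1 were left out. Its adjusted p ran from 9e-06 to 0.258. The call was lost at -1.40 in the fit of the 6 arrays and when any of the 6 arrays that gave 0 calls was left out, with the adjusted p then from 0.0537 to 0.185. The median of interferon-stimulated genes kept its sign, between -0.24 and -0.04, against -0.13 in the main fit. Its moves stayed under 0.14, the SD of the arrays' own list medians within groups. That SD includes IFNARko 1, at 0.10 against -0.24 and -0.22 in its group mates. It therefore cannot judge the move to -0.24 when IFNARko 1 was left out.

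The replicate numbers showed no pairing of the arrays: deviations of same-numbered WT and IFNARko arrays correlated at -0.04, -0.08 and -0.05, and 0 IFNARko arrays correlated best with their own number. Deviations were taken from group means that include the outlying IFNARko 1, so the check cannot exclude a pairing. With the number as a block, limma called 0 genes (1177 unadjusted), 1 without IFNARko 1 and 102 for the interaction, and Ifnar1 was -1.40 (adjusted p = 0.0732).

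None of the 87 other named genes was called with all arrays, and 64 pairs of a gene and an alternative gained a call, most with gene-by-gene weights. With single arrays left out, these were Pnpla3 and Tifa without IFNARko 1, Clec3b and Tmem87a without USP18ko 2, Clec3b without USP18ko:IFNARko 2, Kcnj9 without USP18ko:IFNARko 3, B9d1, Med29, Pclo and Tenm4 without WT 1 and Ocel1 without WT 2. The genes that changed sign follow. With 1 array or both IFNARko 1 and WT 1 left out, Cmpk2 ran from -0.066 to 0.46, Gbp2 from -0.10 to 1.26, Gbp3 from -0.73 to 0.36, Gbp6 from -0.22 to 0.00723, Gbp8 from -0.071 to 0.066, Ifi47 from -0.22 to 0.33, Ifitm2 from -0.067 to 0.63, Ifnar2 from -0.17 to 0.17, Ifnb1 from -0.24 to 0.070, Igtp from -0.43 to 0.58, Irf1 from -0.31 to 0.053, Irgm2 from -0.22 to 0.76, Mog from -1.43 to 0.68, Tyk2 from -0.19 to 0.16 and Xist from -2.42 to 0.11. Array weights gave -0.14 for Gbp2, -0.12 for Gbp8 and Ifi47, -0.50 for Igtp and -0.22 for Irgm2. Gene-by-gene weights gave -0.089 for Cmpk2, -0.27 for Igtp, -0.21 for Ifi47 and 0.45 for Mog. The average of probe sets gave -0.069 for Cmpk2 and -0.12 for Ifnar2, median centring gave -0.000658 for Ifnar2 and -0.00454 for Gbp8, and quantile normalization gave -0.00355 for Ifnar2, 0.054 for Gbp3 and 0.00755 for Ifnb1. The 3 arrays a group and the absence of a detection call limit what these data can show for genes of low signal.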
